A study of Schizosaccharomyces pombe with 6 samples.

Results

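The libraries labelled Δsaf5 were compared with WT across all genes of fission yeast (Schizosaccharomyces pombe) that had enough reads to test. Of 7268 identifiers in the count table, 6018 passed the count filter and entered the comparison: 4951 of 5107 protein-coding genes, 1021 of 1535 noncoding RNAs with an SPNCRNA identifier, and a remainder of pseudogenes, snoRNAs and unmatched identifiers. RNA was sequenced from 2 WT cultures, labelled 972, the standard laboratory background, and from 2 cultures labelled saf5. All were untreated and were grown in YE5S, a rich medium, at 30 °C to an OD600 of 0.5. A further strain, Δcwf12 (2 libraries), entered the fit only to share the estimate of spread. Library totals lay between 9113139 and 12054198 counts. The labels do not say which strain of the laboratory collection was sequenced for Δsaf5 or which further alleles it carried, so the deletion and any other difference between the strain and 972 cannot be told apart.

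Saf5 acts in the assembly of the small nuclear ribonucleoproteins (snRNPs) that carry out splicing. In animal cells its counterpart pICln holds Sm proteins and brings them to an arginine methyltransferase complex before they are placed on snRNA. In fission yeast the methyltransferase is Skb1 and the factor that loads the Sm ring is Smn1.

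Reads on saf5 (SPAC1610.01) were present in the libraries labelled Δsaf5. They held 220 and 249 counts on this gene, against 323 and 234 in WT, so the groups overlapped. The log2 fold change was -0.33 (SE, its standard error, 0.15, adjusted p = 0.090, edgeR). The neighbouring genes were ftp105, with a log2 fold change of 0.27, and mrpl1, which encodes a mitochondrial ribosomal protein, with 0.42. The directions given below therefore rest on the labels of these libraries. Values per library are CPM, the counts of a gene scaled to library size with TMM factors. A gene was called changed, and is said to have risen or fallen, when edgeR's quasi-likelihood test gave an adjusted p under 0.05 and the log2 fold change was 1 or more in either direction.

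Across all genes tested, 373 rose (6.20%) and 150 fell (2.49%), 8.69% in either direction. Among the coding genes 150 rose and 97 fell, or 3.03% and 1.96%, with a median log2 fold change of -0.03. Among noncoding RNAs the shares were 21.1% and 4.47%, with a median of 0.41. For 38.1% of the genes both libraries labelled Δsaf5 lay above both WT libraries and for 35.6% both lay below, so that separation of the libraries is common in this comparison. The WT duplicates differed from each other more than the duplicates labelled Δsaf5. A chi-square over their counts divided by its degrees of freedom was 21.9 for WT, 6.08 for Δsaf5 and 1.99 for Δcwf12. The fit shared its estimate of spread across the strains. The standard errors and adjusted p values therefore do not rest on the wider spread of WT alone.

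The genes of cell separation were lower in the libraries labelled Δsaf5. After cytokinesis fission yeast cells dissolve the primary septum and the old wall around it with glucanases. All 7 genes described had lower values in both libraries labelled Δsaf5 than in both WT libraries, 5 of them fell, and the median log2 fold change was -1.33. The summed level of the group was 3344 and 3348 CPM in WT and 1364 CPM in each of the libraries labelled Δsaf5, so the duplicates were close together.

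The gene eng1, for the endo-beta-glucanase that cleaves the primary septum, had 765 and 664 CPM in WT and 165 and 169 CPM in the libraries labelled Δsaf5 (log2 fold change -2.10, SE 0.09, adjusted p = 5.4e-09). In agn1, for the alpha-glucanase that removes the wall around the septum, the values were 251 and 230.1 CPM against 93.1 and 98.2 CPM. Neither enzyme gene had overlapping groups. The genes adg1 and adg2 fell by 2.06 and 1.38 on the log2 scale, with 299 and 338 CPM in WT for adg1 against 74.0 and 78.6. The chitin synthase regulator gene cfh4 lay close to the threshold, with a log2 fold change of -1.01, and was no longer called without WT replicate 1 (-0.97) or without replicate 1 of the libraries labelled Δsaf5. The remaining members, adg3 and the anillin-related mid2, had log2 fold changes of -0.95 and -0.69 with adjusted p = 2.8e-05 and 3.0e-05, and did not reach the size threshold.

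**Figure D1:**
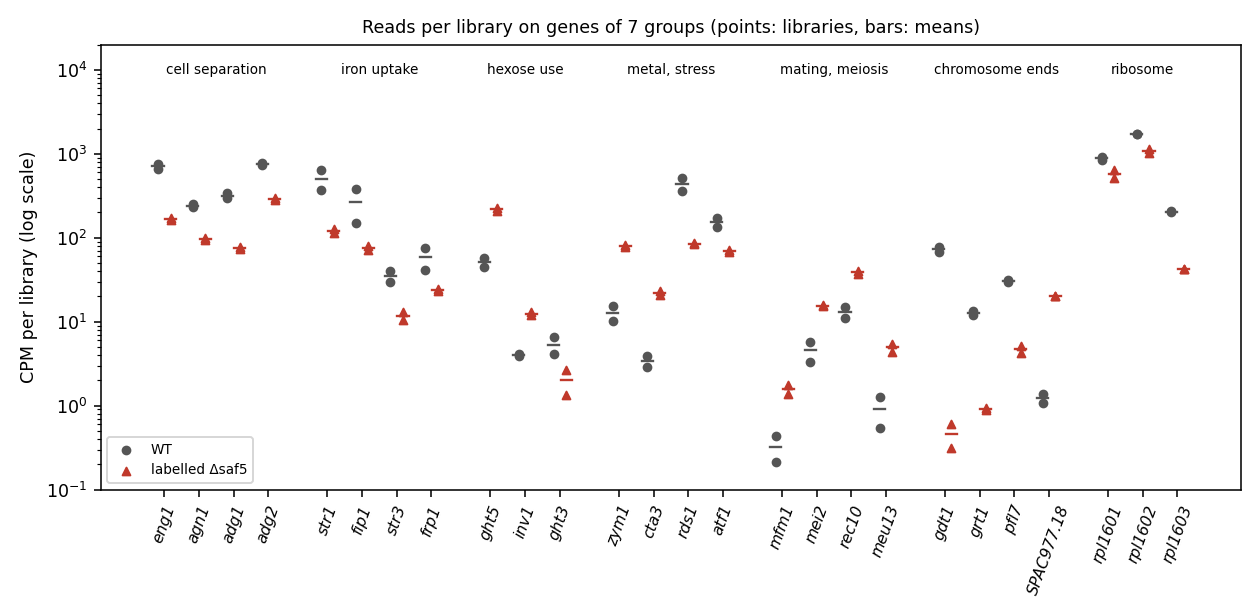
Reads per library in CPM (log scale) on genes of 7 groups, with WT as circles, the libraries labelled Δsaf5 as triangles and short bars for the means of 2 libraries. The cell separation genes eng1 (765 and 664 CPM in WT) and adg1 sit far above their values in the libraries labelled Δsaf5 (165 and 169 CPM for eng1), whereas the WT points of fip1 (381 and 149.5 CPM) lie well apart from each other.

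Genes of G1/S transcription were lower as well. They are read by MBF, the factor that opens the S-phase programme, through promoter elements with the core ACGCGT. Of 12 listed genes 4 fell and 0 rose, with a median log2 fold change of -0.57. The gene mik1, for a kinase that restrains mitosis, had 94.3 and 70.3 CPM in WT and 26.8 CPM in each library labelled Δsaf5, a log2 fold change of -1.62. In cdt2, a partner of the ubiquitin ligase that acts in S phase, the values were 98.1 and 67.5 CPM against 33.6 and 33.2. The replication licensing genes cdc18 and cdt1 followed with -1.04 and -1.03. WT replicate 1 was the higher of the WT libraries for each of these 4 genes. Without it 2 members were called, cdc18 having -0.88 and cdt1 -0.82, and the median was -0.42. Their calls were also lost without 1 of the libraries labelled Δsaf5, replicate 1 for cdc18 (-0.98) and replicate 2 for cdt1 (-0.996). In the 250 bases before the annotated gene start in the ASM294v3 genome of RefSeq, a later build than the ASM294v2 used for the counts, the core letters occurred in 4 of the 12 genes (33.3%), cdt2, cdt1, cdc22 and yox1, and in 2.69% of the 4951 coding genes tested. The 129 holders outside the list had a median log2 fold change of -0.01, and the called mik1 and cdc18 did not hold the letters in this window.

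Iron uptake genes were lower too, with a WT group that was itself spread. Fission yeast takes up iron by a reductase and an oxidase-permease pair and by siderophore transporters, whose genes are repressed when iron is ample. Of 10 listed genes, among them the regulator genes fep1 and php4, 5 fell and 0 rose, with a median log2 fold change of -0.88. The siderophore transporter gene str1 had 633 and 374 CPM in WT and 128 and 113 CPM in the libraries labelled Δsaf5 (log2 fold change -2.06, SE 0.18, adjusted p = 2.9e-06). The iron permease gene fip1 had 381 and 149.5 CPM against 80.6 and 71.8, and its oxidase partner fio1 174 and 73.3 CPM against 52.5 and 52.9. The groups did not overlap in these genes, but WT replicate 1 was the high library each time. Over the whole list the summed level was 1693 and 1049.7 CPM in WT and 638 and 597 CPM in the libraries labelled Δsaf5. Without WT replicate 1 the median was -0.58 and 2 genes stayed called, fip1 having a log2 fold change of -0.97, the reductase gene frp1 -0.81 and fio1 -0.48. The call of fio1 was also lost without either library labelled Δsaf5.

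A large set of genes with high expression moved by a small amount. Ribosomal proteins took 20.1% and 18.6% of all counts in the WT libraries and 14.8% and 16.5% in the libraries labelled Δsaf5. Among the 85 large subunit genes 73 were lower at an adjusted p under 0.05 without a minimum size, and of the 55 for the small subunit 50, where 25.5% of all genes tested were lower and 24.7% higher by this rule. None of the 140 was higher. The median log2 fold changes were -0.43 and -0.45, and 1 of the 140 genes fell by the rule with a minimum size. Without WT replicate 2 or without replicate 2 of the libraries labelled Δsaf5 a further gene, rpl1002, was called, at -1.003 and -1.06. The exceptions to the direction were rps3001, rpp202 and rpl39, with values of 0.11, 0.24 and 0.25 that did not pass the test. Replicate 1 of the libraries labelled Δsaf5 was the lower of the pair, and the medians without it were -0.31 and -0.34. Genes for nucleolar ribosome synthesis factors had a median of -0.28, with 37 of 57 lower at an adjusted p under 0.05 and 1 higher, and those for translation factors a median of -0.24, with 19 of 34 lower and 0 higher.

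The 1 called member was rpl1603, a gene for ribosomal protein uL13, which had 208 and 201 CPM in WT and 41.8 and 42.2 CPM in the libraries labelled Δsaf5 (log2 fold change -2.28, SE 0.07, adjusted p = 5.9e-10). The same protein is encoded by rpl1601, with 913 and 846 CPM in WT and 520.3 and 641 CPM in the libraries labelled Δsaf5 (log2 fold change -0.60). It is also encoded by rpl1602, with a log2 fold change of -0.66. How the counting placed reads that fit more than 1 of these copies is not stated, so the split between them is uncertain. HomolD, an element of fission yeast ribosomal protein promoters with the letters CAGTCACA, was in the same 250-base windows of 88 of the 140 genes (62.9%) and of 2.71% of all coding genes on either strand. The 46 other genes that held it had a median log2 fold change of -0.35, and coding genes without it -0.015. The highest of 10 equal groups of coding genes by WT level had a median of -0.32. Whether the value of the 46 goes with their WT level was not tested. Windows of the 3 copies are shown 5′ to 3′ in the direction of the gene, with the element in capitals, because they carry different numbers of it. They are those of rpl1602 (chrI:4097076-4097325, forward strand), rpl1603 (chrII:3443004-3443253, forward strand) and rpl1601 (chrII:624056-624305, reverse strand).
rpl1602: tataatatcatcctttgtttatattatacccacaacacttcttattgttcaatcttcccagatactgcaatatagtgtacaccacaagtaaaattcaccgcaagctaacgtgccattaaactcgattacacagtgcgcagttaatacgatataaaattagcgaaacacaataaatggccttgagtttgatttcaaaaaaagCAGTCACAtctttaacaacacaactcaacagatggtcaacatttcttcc
rpl1603: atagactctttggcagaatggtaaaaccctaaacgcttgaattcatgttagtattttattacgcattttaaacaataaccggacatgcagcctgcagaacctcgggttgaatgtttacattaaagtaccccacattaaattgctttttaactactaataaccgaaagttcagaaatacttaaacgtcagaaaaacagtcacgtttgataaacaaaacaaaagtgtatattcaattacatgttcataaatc
rpl1601: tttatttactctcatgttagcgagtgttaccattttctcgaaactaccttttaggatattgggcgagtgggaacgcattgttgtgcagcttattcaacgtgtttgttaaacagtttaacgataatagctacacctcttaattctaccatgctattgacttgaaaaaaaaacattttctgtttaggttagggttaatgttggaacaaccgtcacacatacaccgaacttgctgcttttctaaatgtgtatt
The exact element stood 49 bases before the start of rpl1602, and the other windows did not hold these exact letters. The log2 fold changes did not follow the number of elements, with -0.66 for rpl1602, -0.60 for rpl1601 and -2.28 for rpl1603. A match describes the letters of the window and not binding.

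Among genes of sugar use rises outnumbered falls. Of 14 listed hexose transporter and glucose-repressed genes 6 rose and 1 fell, with a median log2 fold change of 0.67. With at least 10 counts in every library 4 rose. The median WT level of the list was 3.24 CPM per kb of listed gene length. It lay within the lowest of 10 equal groups of coding genes by WT level, where 115 of 495 rose and 17 fell. The high-affinity glucose transporter gene ght5 had 44.8 and 57.8 CPM in WT and 229 and 207 CPM in the libraries labelled Δsaf5 (log2 fold change 2.09, SE 0.10, adjusted p = 3.2e-08). The invertase gene inv1 had 3.88 and 4.14 CPM against 11.9 and 13.0, and fbp1, for the gluconeogenic fructose bisphosphatase, a log2 fold change of 1.15. The gluconate transporter gene ght3, 28 coding genes from an end of chromosome I, fell by 1.39. It kept 27 and 13 counts, and its call was lost without replicate 2 of the libraries labelled Δsaf5 (-0.99), which left 0 falls in the list. Without WT replicate 1 the number of rises was 4.

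Among 18 glycolytic and fermentation genes 2 rose and the median was 0.56. They were gpd3, a glyceraldehyde-3-phosphate dehydrogenase gene with 198 and 391.6 CPM in WT and 702 and 749.8 CPM in the libraries labelled Δsaf5, and the pyruvate decarboxylase gene pdc201, whose call was also lost without replicate 2 of the libraries labelled Δsaf5 (0.92). By the adjusted p alone 24.7% of all genes tested were higher and 25.5% lower. In this list 9 were higher and 3 lower by that rule. The latter were the alcohol dehydrogenase gene adh4 (-0.77), the phosphofructokinase gene pfk1 (-0.54) and the hexokinase gene hxk2 (-0.48). The related tdh1 was among the genes with the most reads, with 7229 and 11509 CPM against 15765 and 17332, and a log2 fold change of 0.82. WT replicate 2 lay above replicate 1 in this group, and leaving out either moved the result: without replicate 1 no member was called and the median was 0.30, and without replicate 2 6 were called and it was 0.81. Heat shock proteins and chaperones showed the same spread, with summed levels of 20472 and 28574 CPM in WT and 19651 and 20689 in the libraries labelled Δsaf5. Their median of -0.32 became -0.72 without WT replicate 1 and 0.08 without replicate 2, and the only called member, the DnaJ-type chaperone gene psi1 (-1.08), was lost without WT replicate 2 (-0.43) and without replicate 2 of the libraries labelled Δsaf5 (-1.03).

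Targets of the stress kinase Sty1 and its transcription factor Atf1 changed in both directions. Of 18 listed genes 3 rose and 2 fell, with a median of -0.05. The metallothionein gene zym1 had 10.2 and 15.2 CPM in WT and 76.8 and 81.0 CPM in the libraries labelled Δsaf5 (log2 fold change 2.63, SE 0.14, adjusted p = 3.8e-08). In the same list cta3, for a calcium-transporting ATPase, rose by 2.68 and the glutathione S-transferase gene gst2 by 1.34. The stress-responsive gene rds1 went the other way, from 358 and 508 CPM to 86.0 and 84.6 CPM, a log2 fold change of -2.34, and atf1 itself had 136 and 174 CPM against 67.4 and 71.4, a log2 fold change of -1.16. Without WT replicate 2 the value of atf1 was -0.96 and it was no longer called. Among antioxidant enzymes, a list added after values were seen, 1 of 10 rose, the thioredoxin peroxidase gene tpx1 with 802 and 1107 CPM in WT and 1987 and 2262 CPM in the libraries labelled Δsaf5. Without WT replicate 1 its log2 fold change was 0.94.

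Fatty acid genes and eisosome genes were lists chosen after their values were seen, and their counts are descriptions. Of 9 genes for fatty acid synthesis and activation 3 fell, with a median of -0.79. All 9 were lower at an adjusted p under 0.05, as were 25.5% of all genes tested. Among the 9 is vht1, the transporter of biotin, the cofactor of acetyl-CoA carboxylase. It had 954 and 1015 CPM in WT and 337 CPM in each library labelled Δsaf5. The carboxylase gene cut6 had a log2 fold change of -1.09 and the acyl-CoA synthetase gene lcf1 -1.15. The fatty acid synthase genes fas1 and fas2 had -0.79 and -0.62. Of 4 eisosome genes, for the proteins of plasma membrane furrows, fhn1 fell by 2.07 and eis1 by 1.29, whereas the core component pil1 had -0.63.

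**Figure D2:**
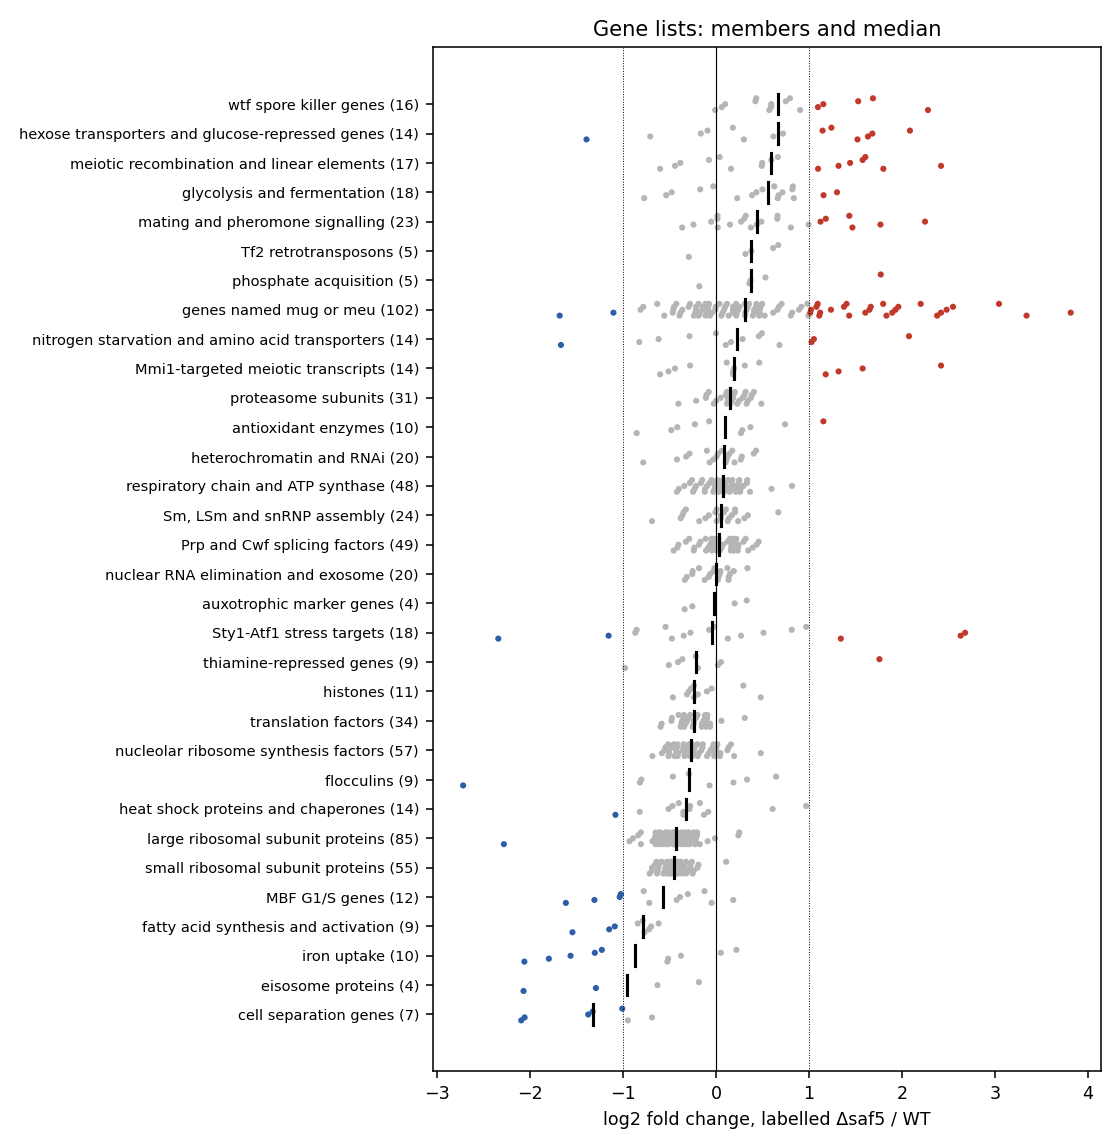
Log2 fold changes, libraries labelled Δsaf5 over WT, of the tested members of each gene list (number in brackets), with called rises in red, called falls in blue, all others in grey and black bars at the list medians. The cell separation genes (median -1.33) form the lowest row and the wtf genes (0.67) the highest, and the ribosomal protein rows are narrow around -0.43 and -0.45.

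Genes that act in mating and meiosis were read at low levels in WT, and the calls among them were nearly all rises. Of 23 genes for mating and pheromone signalling 6 rose and 0 fell, with a median of 0.44. Their median WT level was 8.12 CPM per kb. Of the lowest of 10 equal groups of coding genes, up to 9.92 CPM per kb, 23.2% rose. The gene mei2, for the RNA-binding protein that starts meiosis, had 3.34 and 5.74 CPM in WT and 15.6 and 15.4 CPM in the libraries labelled Δsaf5 (log2 fold change 1.77, SE 0.23, adjusted p = 6.0e-05). Its RNA partner meiRNA, the product of sme2, rose by 2.03, from 1.08 and 0.64 CPM to 4.08 and 2.999. The M-factor precursor gene mfm1, with 4 and 2 counts in WT and 14 and 17 in the libraries labelled Δsaf5, rose by 2.25. Another M-factor gene, mfm2, had a log2 fold change of 0.01. The master regulator gene ste11 did not reach the size threshold, with a log2 fold change of 0.49.

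Of 17 genes for meiotic recombination and linear elements, the axis structures of meiotic chromosomes in this yeast, 7 rose and 0 fell, with a median of 0.59. DESeq2 called 4 of them. The 17 had a median WT level of 2.14 CPM per kb. Of all genes tested, the lowest of 10 equal groups by WT level reached 2.71 CPM per kb, and 39.5% of it rose. In the group of 14 transcripts that the RNA-binding protein Mmi1 directs to degradation in growing cells, 4 rose (meu13, rec10, rec25 and bqt1) and 0 fell, with a median of 0.19. This group shares members with the list above, meu13 and rec8 among them. Its median WT level was 3.76 CPM per kb. When coding genes alone were divided into 10 equal parts by WT level, 23.2% of the lowest part, which holds this level, rose. The median log2 fold change there was 0.44. The call of bqt1 was lost without replicate 1 of the libraries labelled Δsaf5 (0.87). The linear element gene rec25 had 4.09 and 5.42 CPM in WT and 9.64 and 14.2 CPM in the libraries labelled Δsaf5. In the same group mei4, for a meiotic forkhead factor, had 10.1 and 11.05 CPM against 11.03 and 11.9, and rec8, for the meiotic cohesin, a log2 fold change of -0.60 (adjusted p = 0.087). The genes of this group were thus not uniform.

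Among the 102 genes named mug (meiotically upregulated) or meu (meiotic expression upregulated) 26 rose (25.5%) and 2 fell, with a median of 0.31. With at least 10 counts in every library 17 rose. The number of falls was 1 without WT replicate 1 and 0 without either library labelled Δsaf5. Their median WT level was 8.06 CPM per kb of listed gene length, against 38.6 for all coding genes, and 23.2% of the coding genes in the lowest of 10 equal groups by WT level rose. The members with the largest rises were mug130, with 7 and 8 counts in WT and 109 and 117 in the libraries labelled Δsaf5, and meu27, with 20 and 10 counts against 167 and 156. Of 16 wtf genes, selfish elements that kill the spores not inheriting them, 5 rose and 0 fell, with a median of 0.67. Their median WT level was 3.80 CPM per kb, within that lowest group of coding genes, where 115 of 495 rose and the median was 0.44. The largest rise was that of wtf20, with 31 and 18 counts in WT and 126 in each library labelled Δsaf5. Without replicate 1 of the latter 2 wtf genes were called. These genes share sequence, so reads may be split between copies.

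Nutrient genes held single large changes. The acid phosphatase gene pho1 had 135 and 246 CPM in WT and 638 and 661 CPM in the libraries labelled Δsaf5 (log2 fold change 1.77, SE 0.19, adjusted p = 1.5e-05), and was the only called gene of 5 in phosphate acquisition. The thiamine-repressed nmt1 rose by 1.76 from 7 and 6 counts, the only call among 9 thiamine-repressed genes. Of 14 nitrogen starvation and amino acid transporter genes 3 rose, led by isp5, with 5.82 and 7.86 CPM in WT and 29.5 and 28.2 CPM in the libraries labelled Δsaf5. The permease gene aat1 fell by 1.67.

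The genes of the splicing machinery showed small changes. Of 24 genes for Sm and LSm proteins and snRNP assembly, and of 49 for Prp and Cwf splicing factors, 0 were called in either direction by edgeR or by DESeq2, with medians of 0.05 and 0.03. By the adjusted p alone 4 members of the first list were higher and 4 lower, and 8 and 7 of the second. By this rule 24.7% of all genes tested were higher and 25.5% lower. The assembly factor gene smn1 had 20.8 and 19.5 CPM in WT and 32.3 and 31.8 CPM in the libraries labelled Δsaf5, a log2 fold change of 0.67 (adjusted p = 0.00025). The Sm protein gene smf1 had 66.3 and 59.6 CPM against 39.2 and 38.8, a log2 fold change of -0.69. The methyltransferase gene skb1 had -0.18 (adjusted p = 0.060). Among 20 genes each for nuclear RNA elimination and for heterochromatin and RNAi, 48 for the respiratory chain, 31 for proteasome subunits, 11 for histones, 5 Tf2 retrotransposons and 4 auxotrophic markers, 0 were called as well. Of all coding genes tested 3.03% rose and 1.96% fell. The marker gene leu1 had 709 and 713 CPM in WT and 566 and 625 CPM in the libraries labelled Δsaf5.

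The largest changes of single coding genes, taken with at least 10 CPM in either strain, lay partly outside these groups. Of the rises, SPCC737.04, an uncharacterized gene, had 4.52 and 4.14 CPM in WT and 73.6 and 76.2 CPM in the libraries labelled Δsaf5 (log2 fold change 4.11, SE 0.14, adjusted p = 1.2e-09). The gene ecl1, known for extending chronological lifespan when overexpressed, had 16.9 and 19.4 CPM against 143 and 127, a log2 fold change of 2.89. The G protein beta subunit gene gnr1 rose by 2.60, meu14, which acts in the growth of the forespore membrane, by 2.48, and the catechol methyltransferase gene cmt2 by 3.08. Among the falls far from chromosome ends were SPBPB7E8.01, uncharacterized, with 445 and 370.5 CPM in WT and 81.4 and 80.3 CPM in the libraries labelled Δsaf5, and rds1, rpl1603, eng1 and fhn1 described above. For none of these genes did the groups overlap, which was a condition of naming them.

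Coding genes near chromosome ends held a larger share of calls than those farther inside, in both directions. The ends of fission yeast chromosomes hold gene families, transporters and silent chromatin. Of the 239 tested coding genes within 50 coding genes of an end 23 rose (9.62%) and 27 fell (11.3%), against 127 (2.70%) and 70 (1.49%) of the 4712 farther inside. The ends of chromosomes I and II held most of these, since on chromosome III 6 rose and 2 fell among 99. The left end of chromosome II had 12 falls and 2 rises among 31 genes, and the right end of chromosome I had 6 falls and 7 rises among 36. At ranks 51 to 100 from the ends of I and II the shares were 2.04% and 2.55%, near those of all coding genes. Requiring at least 10 counts in every library reduced the rises near the ends from 23 to 11. The median WT level was 22.8 CPM per kb within 50 genes of an end and 39.4 farther inside. At ranks 11 to 25 from the ends of I and II it was 5.98, and 20.5% of 39 genes rose and 23.1% fell. At ranks 1 to 10 it was 1.41, and 4 of 8 rose and 2 fell. In the lowest of 10 equal groups of coding genes by WT level, up to 9.92 CPM per kb, 23.2% rose and 3.43% fell.

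Some called genes near the ends lay in runs. Across the genome 5 runs of at least 3 neighbouring tested coding genes were called in a single direction, 4 of them falling, and all 5 lay within 50 coding genes of an end of chromosome I or II. The longest held 8 genes at the left end of chromosome II, from SPBPB21E7.09 to abc3. In it, SPBPB10D8.01, annotated as a cysteine transporter, had 132 and 154 CPM in WT and 10.2 and 9.20 CPM in the libraries labelled Δsaf5 (log2 fold change -3.88, SE 0.11, adjusted p = 5.9e-10). Its neighbour SPBPB10D8.02c, annotated as an arylsulfatase, had 54.7 and 73.9 CPM against 2.29 and 3.10. The flocculin gene pfl7 fell by 2.72, the alanine racemase gene alr2 by 2.68, the amino acid permease gene aat1 by 1.67 and abc3, for a vacuolar ABC transporter, by 1.40. Another run at this end held grt1, a transcription factor gene with 124 and 113 counts in WT and 9 in each library labelled Δsaf5. Several of these genes were also lower in the Δcwf12 libraries than in WT: there grt1 had 13 and 8 counts, SPBPB10D8.01 had 413 and 377 (1222 and 1453 in WT), pfl7 had 49 and 63 (278 and 299 in WT) and alr2 had 21 and 17 (78 and 106 in WT). In the same run SPBPB21E7.09 was not, with 473 and 389 counts in Δcwf12 and 262 and 337 in WT.

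A run of 5 at the right end of chromosome I included gdt1, which had WT counts of 630 and 727, against 6 and 3 in the libraries labelled Δsaf5. Its neighbours SPAC186.04c and SPAC186.06, with 18 to 35 counts in the WT libraries, had 0 or 1 count in each library labelled Δsaf5. In the Δcwf12 libraries gdt1 had 0 counts, SPAC186.04c 0, and SPAC186.06 2 and 1. The single run of rises, also on the right arm of chromosome I, held SPAC869.09, pcm2 and mel1, which had 0 to 3 counts per WT library and 10 to 29 in the libraries labelled Δsaf5. The melibiase gene mel1 had 2 and 1 counts in WT and 22 and 23 counts in the others. A lost or rearranged chromosome end and a change in transcription cannot be told apart from counts per gene.

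**Figure D3:**
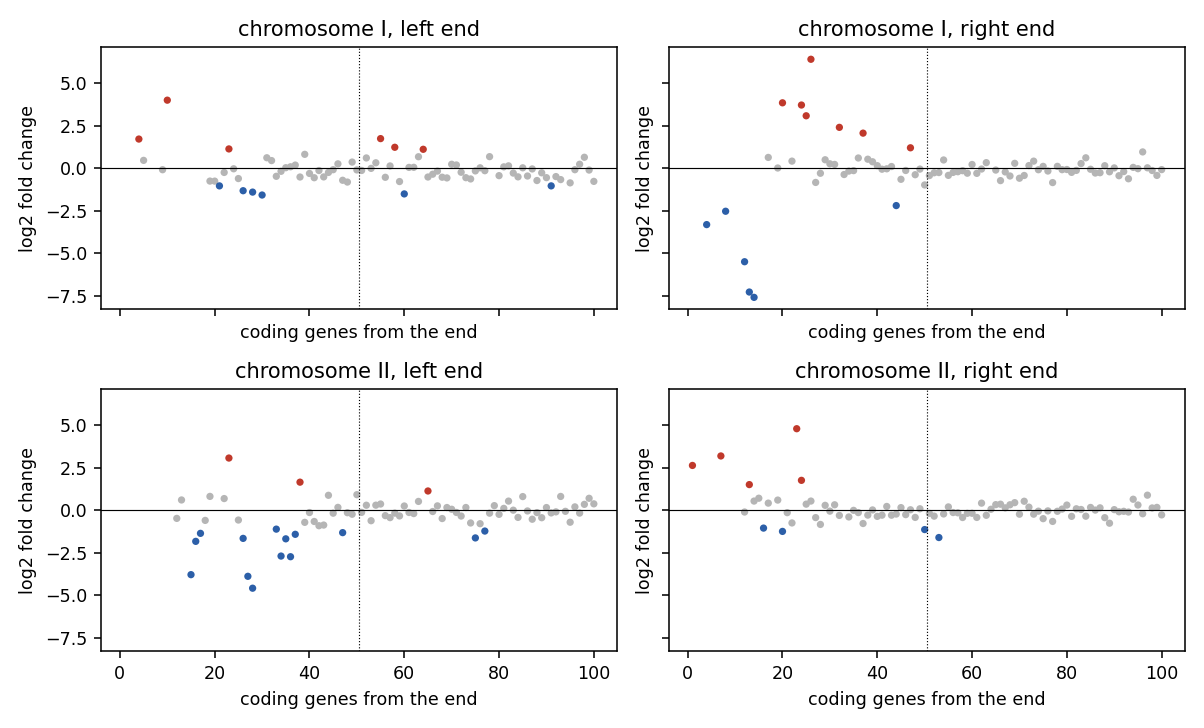
Log2 fold change of tested coding genes against their order from the left and right ends of chromosomes I and II, with called rises in red, called falls in blue and others in grey. The dotted line stands after the 50 coding genes counted as near an end, and the left end of chromosome II shows 12 falls and 2 rises to the left of it.

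Noncoding RNAs made up a larger part of the reads in the libraries labelled Δsaf5 than in WT. SPNCRNA identifiers took 0.851% and 0.795% of the counts in WT and 1.12% and 1.05% in the libraries labelled Δsaf5. In the Δcwf12 libraries their part was larger still, at 1.30% and 1.36%. Among 1021 tested, 215 rose (21.1%) and 46 fell (4.51%). Of the 741 that overlap a gene in antisense 171 rose and 27 fell, with a median of 0.48. Of the 227 without overlap 35 rose and 18 fell, with a median of 0.23. By length, 31 of 107 shorter than 600 nucleotides rose (29.0%) and 37 of 243 of at least 2000 nucleotides (15.2%). Their median WT levels were 1.71 and 9.21 CPM, and the count filter acts on reads, so length and level cannot be told apart here.

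The noncoding RNA SPNCRNA.1294 had WT counts of 10 and 20, against 213 and 180 in the libraries labelled Δsaf5 (log2 fold change 3.62, SE 0.25, adjusted p = 3.4e-07). Also among the largest rises were SPNCRNA.1378 (3.22), SPNCRNA.978 (2.92) and SPNCRNA.739 (2.73), and SPNCRNA.234, which went from 2 and 1 counts to 130 and 103. Among the falls SPNCRNA.1307 had WT counts of 220 and 264, against 10 and 19 in the libraries labelled Δsaf5. It lies antisense to SPBPB10D8.02c, which fell too, and without the strand setting of the counting the reads of such pairs cannot be told apart. SPNCRNA.1471 fell by 2.16, from 470 and 372 counts to 93 and 105. Of 203 coding genes opposite a noncoding RNA that rose, 2 rose (0.985%) and 3 fell (1.48%), with a median of -0.06. Opposite noncoding RNAs that were not called 40 of 638 rose (6.27%) and 11 fell (1.72%), and opposite those that fell 2 of 30 rose and 4 fell (13.3%).

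The change differed with the level of a gene in WT. When all genes were divided into 10 equal groups by WT CPM per kb, 39.5% of the lowest group rose and 2.33% fell, and 0.166% of the highest rose and 3.16% fell, while the medians went from 0.83 to -0.30. Noncoding RNAs formed 70.8% of the lowest group. Coding genes alone gave a median of 0.44 in their lowest group, with 115 of 495 rising and 17 falling, and -0.32 in the highest, with 1 rising and 15 falling. WT counts enter both the level and the fold change. The count filter also kept genes with few WT reads only where libraries of another strain had enough, which favours rises in the lowest group. Groups by Δcwf12 level hold the same filtered genes. Without a count filter 218 of 1366 noncoding RNAs rose. Levels taken from the Δcwf12 libraries, which do not enter the fold change, gave coding genes medians of 0.31 and -0.31, and 107 rises and 23 falls in the lowest group. For all genes they gave 29.4% rising and 5.65% falling in the lowest group, with a median of 0.59, and a median of -0.28 in the highest. Ribosomal protein genes were part of the highest group, and without them its median was -0.24 over 359 genes.

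**Figure D4:**
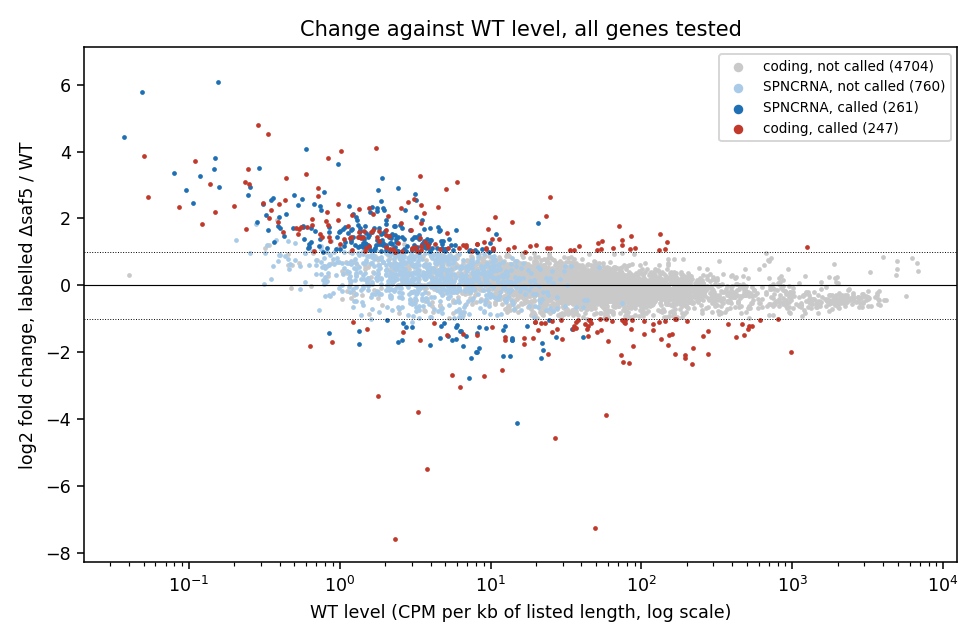
Log2 fold change against WT level in CPM per kb of listed length (log scale) for coding genes and SPNCRNA identifiers, with called genes in darker colours, a solid line at 0 and dotted lines at 1 and -1. Called rises gather at low WT levels and the dense band at the highest levels lies below 0.

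**Figure D5:**
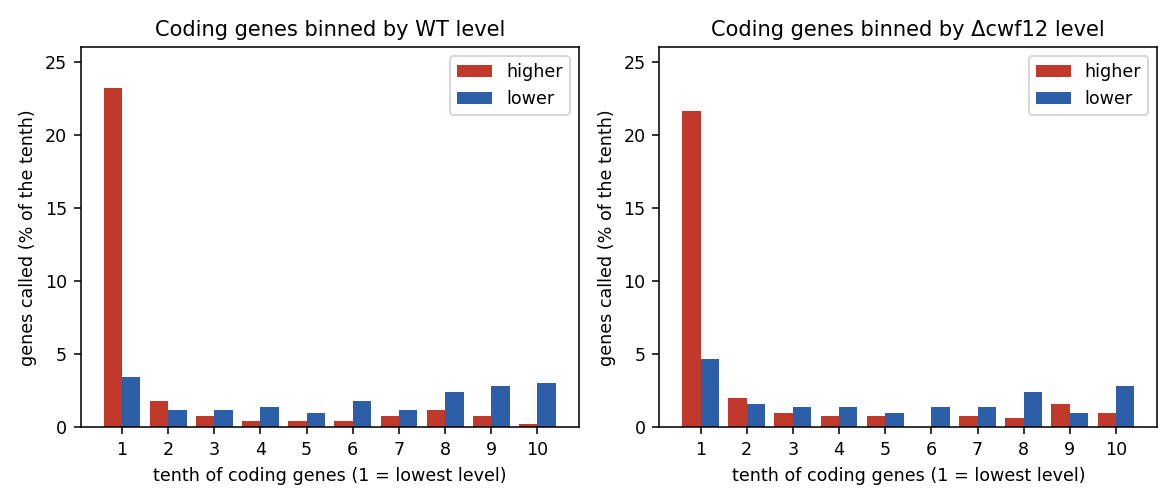
Share of coding genes that rose (red) or fell (blue) in each of 10 equal groups by level, with levels from WT on the left and from Δcwf12 on the right. In the lowest group 23.2% rose by WT level and 21.6% by Δcwf12 level, the largest shares in each panel.

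Genes with and without introns had different shares of calls. Of 2517 coding genes with 0 introns 96 rose and 68 fell (6.52% called), and of 2434 with at least 1 intron 54 rose and 29 fell (3.41%). The shares were 3.84% with 1 intron, 2.94% with 2, 2.53% with 3 and 3.87% with 4 or more. The median log2 fold change was -0.05 for genes with 0 introns and 0.04 for those with 4 or more. Among genes above the median WT level 4.45% of genes with 0 introns and 1.45% of those with introns were called. Whether the reads came from spliced RNA cannot be told from these counts.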

How the data were processed

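The 6 RNA libraries comprised 2 for WT, 2 labelled Δsaf5 and 2 for Δcwf12. According to the labels and the study's methods, the authors prepared stranded mRNA libraries, sequenced paired reads and used Trimmomatic, STAR and HTSeq with the ASM294v2 genome. The deposited values are raw counts per gene, whole numbers without normalization, for 7268 identifiers. Library totals ran from 9113139 to 12054198 counts, which limits the precision for genes with few reads. The annotation release, feature type and strand setting of the counting are not given in the sources used here, so intronic and antisense reads may be part of a gene's count. The study describes the 2 cultures as biological replicates.

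The test was run in edgeR 4.0.16 (R 4.3.3). Genes were filtered with filterByExpr by strain and scaled with TMM factors, and each strain had its own coefficient in 1 model of the 6 libraries, followed by two-sided quasi-likelihood F-tests and Benjamini-Hochberg adjustment over the 6018 genes tested. A call required both an adjusted p below 0.05 and a fold change of 1 or more on the log2 scale. The standard error is the log2 fold change over the square root of F. The other settings tried were DESeq2 1.42.0, RLE factors, library totals alone, no count filter, a minimum of 10 counts per library, the 4 libraries alone, a block for the replicate number, and leaving out single libraries, where the remaining library is assumed to vary like the other strains. Names, introns, gene order and windows came from the RefSeq annotation of ASM294v3, which matched 6862 identifiers.

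The comparison, the gene lists and the rule for named genes were chosen with earlier results of these data known. Named were saf5 and its neighbours, the 12 largest rises and falls among called coding genes and the 5 among noncoding RNAs (at least 10 CPM in either strain, groups not overlapping), up to 4 called members per list or the member with the highest WT level, the 5 genes with the most reads, and the Mmi1 and Sm/LSm list members. Not every gene this rule selects is described, and other list members, members of runs, sme2 and ste11 were named after their values were seen. Lists were described by counts and medians, with no set test. 1 gene of the cell separation list is not reported here.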

Additional observations from a re-analysis of the deposited data

How the results depend on the processing

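The counts of genes that rose and fell kept within 1.5 times of 373 and 150 under every alternative run, from 265 and 127 with at least 10 counts in every library to 469 and 115 with library totals alone. DESeq2 called 316 and 148, of which edgeR also called 312 and 144. Leaving out 1 library gave 330 to 403 rises and 138 to 167 falls, for coding genes 135 to 169 and 89 to 105, for noncoding RNAs 189 to 229 and 43 to 56, and near chromosome ends 21 to 29 and 24 to 30. Near the ends, at least 10 counts in every library left 11 rises, and counting the first 25 genes from an end gave 14 rises and 11 falls.

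Library totals alone moved the median of all genes up by 0.15 on the log2 scale. Ribosomal protein genes then had medians of -0.29 and -0.30, with 135 of 140 below 0, the lowest and highest of 10 level groups of coding genes 0.60 and -0.17, and genes with 0 and with at least 1 intron 0.10 and 0.15. The median of the lowest group was 0.38 with at least 10 counts in every library, 0.31 by Δcwf12 level and 0.41 to 0.45 with 1 library left out, and that of the highest -0.40 to -0.26. Medians by intron number (0 introns, then at least 1) were -0.064 and -0.012 with DESeq2 and -0.16 and -0.10 above the median WT level. For genes with introns RLE factors gave -0.0092 and at least 10 counts in every library 0.0091. With 1 library left out they were -0.061 to -0.029 and -0.0098 to 0.017. The cause of these shifts was not tested.

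The replicate numbers did not pair the samples (correlations of deviations between -0.02 and 0.05), and the replicate block gave 377 rises and 150 falls. No named gene reversed its direction while called. With few counts in WT, the size of a rise varies with the prior count of the fit, and with 2 libraries per strain the spread within a strain is poorly known.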

Other observations

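Among transcripts outside the lists, urg1 and urg2, neighbouring genes induced by uracil, show how far the WT cultures differed for single genes. The gene urg1 had 52.9 and 253 CPM in WT and 416 and 435 CPM in those labelled Δsaf5. Its log2 fold change was 1.47 over both WT libraries, 0.75 without WT replicate 1 and 3.01 without WT replicate 2. DESeq2 did not call it (adjusted p = 0.16), and the call was also lost without either library labelled Δsaf5. Both genes were chosen after their values were seen.

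Coding sequences were searched on the coding strand for the hexamers TTAAAC and TCAAAC, the core letters of the element that Mmi1 binds in RNA. Of the 63 tested coding genes with more than 4 copies per kb 11 rose (17.5%), against 72 of 2112 without a copy (3.41%). The shares between did not increase steadily with density, at 2.09% for up to 1 copy per kb, 2.19% for 1 to 2, 4.53% for 2 to 3 and 2.83% for 3 to 4. The 11 include meu13 and bqt1 and also short genes, such as ecl1, whose density rests on 1 copy in 243 coding nucleotides. In the Mmi1 list, crs1 and mei4 had 6 and 8 copies and log2 fold changes of 0.31 and 0.11. These are descriptions, since the letters were searched with the changes known.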
